A study of Mus musculus with 112 samples.

Results

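A set of 7 genes that earlier mouse work proposed as inherited modifiers of mammary tumour metastasis is described here across tumours: Sipa1, Rrp1b, Cadm1, Cnot2, Tpx2, Ndn and Arhgap25. All probe sets whose only gene symbol was 1 of these 7 were taken, which gave 28 of the 45137 probe sets measured (7 of 18194 genes). The genes have 1 (Sipa1), 3 (Rrp1b), 4 (Cadm1), 6 (Cnot2), 4 (Tpx2), 8 (Ndn) and 2 (Arhgap25) probe sets. The material was 56 mammary tumours, each from 1 animal that carried the MMTV-PyMT transgene, in which the mouse mammary tumour virus promoter drives the polyoma middle T antigen in mammary epithelium. The animals came from crosses between PyMT mice and 18 sublines of AKXD, recombinant inbred lines that mix the AKR/J and DBA/2J genomes in fixed combinations. Every tumour carried the transgene, there was no treatment and no subline was a control, so the subline is the only labelled difference between groups. There were 3 tumours in 16 sublines and 4 in 2 sublines. Each tumour was hybridised to 2 Affymetrix arrays with different probe sets, MOE430A (array A, with 22 of the 28 probe sets) and MOE430B (array B, with 6). Both Arhgap25 probe sets are on array B. Within a gene, probe sets are numbered from the brightest down on array A (for Arhgap25 on array B), and those of Tpx2 and Cnot2 on array B are called B1 and B2. The labels give no age and no metastasis count, so expression is not set against metastasis here.

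As background, the 7 proteins act in different parts of the cell. Sipa1 switches off the small GTPase Rap, which controls integrin adhesion, and Rrp1b is a nucleolar and chromatin protein that binds Sipa1. Cadm1 is an immunoglobulin-type cell adhesion molecule. Cnot2 is a scaffold subunit of the CCR4-NOT complex, which removes the poly(A) tails of messenger RNAs. Tpx2 builds spindle microtubules in mitosis and activates the kinase Aurora A, and it is set free for this by the GTPase Ran. Ndn encodes necdin, an imprinted growth suppressor read from the paternal allele. Arhgap25 switches off the small GTPase Rac in blood cells.

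Values are deposited log2 expression values, in which a difference of 1 is a change by a factor of 2. Left out unless stated are 4 arrays A (the 3 of subline 23 and tumour 3 of subline 25) and 3 arrays B (tumour 3 of subline 11, tumour 2 of subline 23, tumour 3 of subline 25) which stood apart from the others. Their median correlation with the other arrays of their kind was 0.223 to 0.948 on array A and 0.858 to 0.919 on array B, against at least 0.97 and 0.968 on the arrays kept. This left 52 tumours in 17 sublines on array A, 53 tumours in 18 sublines on array B and 51 tumours on both. Bacterial control probe sets that had no target in the sample averaged 4.69 to 5.05 on the kept arrays A and 4.56 to 4.83 on the kept arrays B, which is taken as the background level. The luminal epithelial marker Krt8 ran from 11.60 to 12.94 and Epcam from 12.32 to 13.35, so the tissue label fits these markers. Other tissue was present in varying amounts: the adipocyte gene Adipoq ran from 5.34 to 11.40 and the muscle actin Acta1 from 6.25 to 13.80. The 100 probe sets on both arrays had a median correlation of 0.59 between them, and in 49 of 51 tumours array A resembled the array B of its own tumour most.

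No probe set of the 7 genes was called different among sublines, against the spread between tumours of 1 subline. With a mean for each subline and limma's moderated F test, 0 of 22 member probe sets on array A had an adjusted p under 0.05, the threshold for a call here, while 1.74% of all probe sets on array A did. On array B the count was 0 of 6, against 0.671% of all probe sets. At an unadjusted p under 0.05 there were 3 member probe sets on array A, or 13.6% of them, against 15.2% of all probe sets on that array. These 3 were 2 probe sets of Cnot2 and 1 of Rrp1b, and the lowest adjusted p was 0.11, for Cnot2 probe set 3. On that probe set subline 24 was highest at 9.18 ± 0.06 and subline 20 lowest at 8.80 ± 0.03 (SD, n = 3 each).

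For each gene the brightest probe set was used to describe its level, and all 7 were above background. Tpx2 had the widest range of subline means, 0.59. Its level was 8.27 in the lowest tumour, 8.94 in the median tumour and 9.61 in the highest. Subline 28 was highest at 9.24 ± 0.13 and subline 20 lowest at 8.64 ± 0.34 (SD, n = 3 each), with an adjusted p among sublines of 0.37. The highest single tumour belonged to subline 16, whose 3 tumours ran from 8.73 to 9.61.

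Sipa1 had 7.86 in the lowest tumour, 8.13 in the median and 8.54 in the highest. Subline 24 was highest at 8.30 ± 0.21 and subline 16 lowest at 7.93 ± 0.09 (SD, n = 3 each; adjusted p = 0.42 by limma). Rrp1b had 8.25, 8.56 and 9.00 in the lowest, median and highest tumour. Subline 28 was at the top with 8.80 ± 0.24 and subline 24 at the bottom with 8.42 ± 0.05 (SD, n = 3 each; adjusted p = 0.62).

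Cadm1 had 8.84, 9.22 and 9.83 in the lowest, median and highest tumour, and its 3 subline 10 tumours had an SD of 0.45, larger than the whole range of subline means, 0.38. Cnot2 varied least, with 9.19, 9.39 and 9.58 and a range of subline means of 0.15. Arhgap25 had 7.04, 7.24 and 7.45 on array B. These 3 genes had adjusted p-values among sublines of 0.89, 0.94 and 0.91 by limma.

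Ndn was read differently by its 8 probe sets. Probe set 1 had 6.69, 7.06 and 7.67 in the lowest, median and highest tumour. Probe set 2 had 5.39, 6.20 and 7.27, a 3.68-fold span between tumours, which is wider than that of any brightest probe set above. On it subline 22 was highest at 6.84 ± 0.60 and subline 21 lowest at 5.79 ± 0.33 (SD, n = 3 each), with an adjusted p of 0.60. The intraclass correlation, the share of variance lying between sublines, was 0.19 at most for the 7 brightest probe sets and 0.05 in the median over array A.

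**Figure D1:**
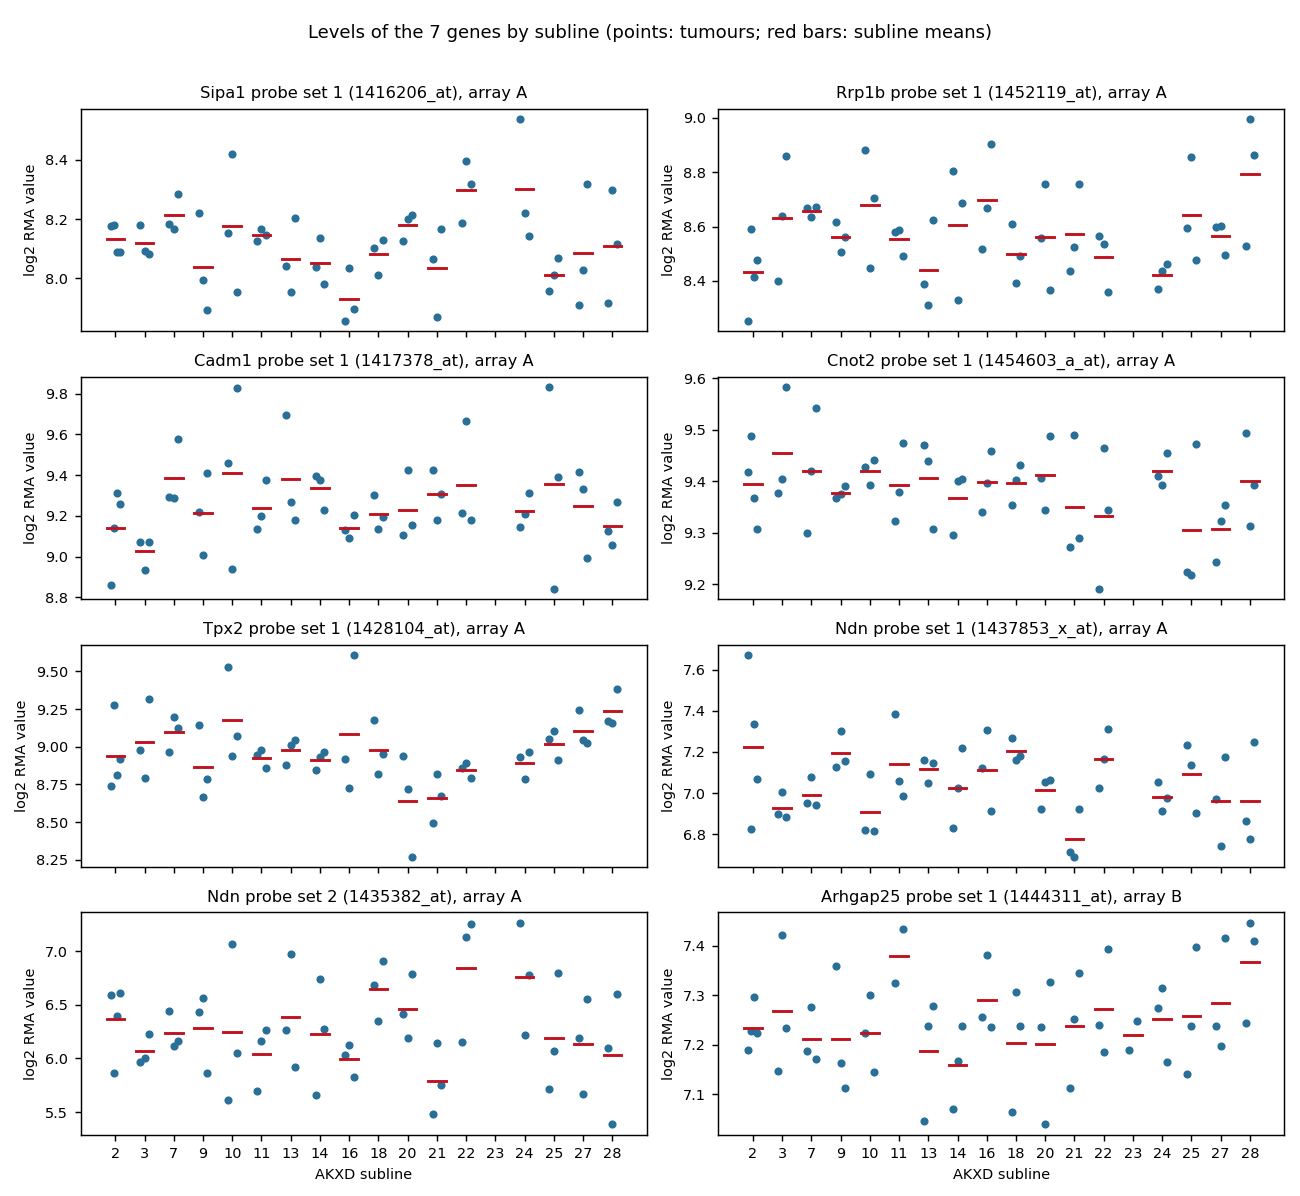
Log2 level (y axis) of the brightest probe set of each gene, and of the second Ndn probe set, by AKXD subline (x axis). Points are tumours on kept arrays and red bars are subline means. Tumours of 1 subline spread over much of the range in every panel, and the range of subline means is widest for Tpx2 among the brightest probe sets, at 0.59.

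The genes were then compared tumour by tumour after each subline's mean was taken away. The correlation r of these deviations, here called r within sublines, shows what rises and falls together among tumours of the same cross. First, the probe sets of 1 gene were compared with each other. The 3 Rrp1b probe sets had r of 0.53 to 0.66, and Cadm1 probe sets 1, 2 and 3 had r of 0.69 to 0.81. Cadm1 probe set 4, the dimmest, had r of 0.27 to 0.47 with these.

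Tpx2 gave different readings on the 2 arrays. Its array A probe sets 1 and 2 had r = 0.52 with each other, and its array B probe sets B1 and B2 had r = 0.86. Across arrays r lay between -0.09 and 0.08 (n = 51 tumours), while probe sets shared by both arrays had a median of 0.59 and a 5th percentile of 0.36. The Tpx2 results below are those of array A probe set 1. For Cnot2 the brightest probe set had r = -0.05 with probe set 3, 0.38 with probe set 2 and -0.435 with probe set B1. Probe sets 2 and 3 had r = 0.57 with each other. Probe set B2 averaged 4.70, within the range of the background level. The 2 Arhgap25 probe sets had r = 0.02 (n = 53 tumours).

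Ndn split into groups. Probe sets 2, 3, 4 and 7 had r of 0.82 to 0.97 with each other. Probe set 1 had r of 0.27 to 0.37 with these 4, and the other 3 had r of -0.40 to -0.08 with them. The brightest Ndn probe set also followed the bacterial controls without target (r = 0.60, permutation p = 0.00108, Spearman's rho = 0.51, permutation p = 0.00307, n = 52 tumours, and r = 0.47 without the 2 tumours farthest from the median). Other member probe sets went with these controls too at a permutation p under 0.05. They were probe set 2 of Cadm1 (r = -0.53), of Cnot2 (r = -0.495) and of Tpx2 (r = -0.49). Ndn probe sets 6 (r = 0.44) and 8 (r = 0.465) were the others. For Ndn probe set 2 the r with these controls was -0.19. The name of probe set 1 ends in _x_at, which on this array type marks probe sets with probes that may bind other transcripts, but so do the names of probe sets 3 and 4 in the concordant group. Results for Ndn are therefore given for probe set 2 as well, a choice made after its values were seen.

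**Figure D2:**
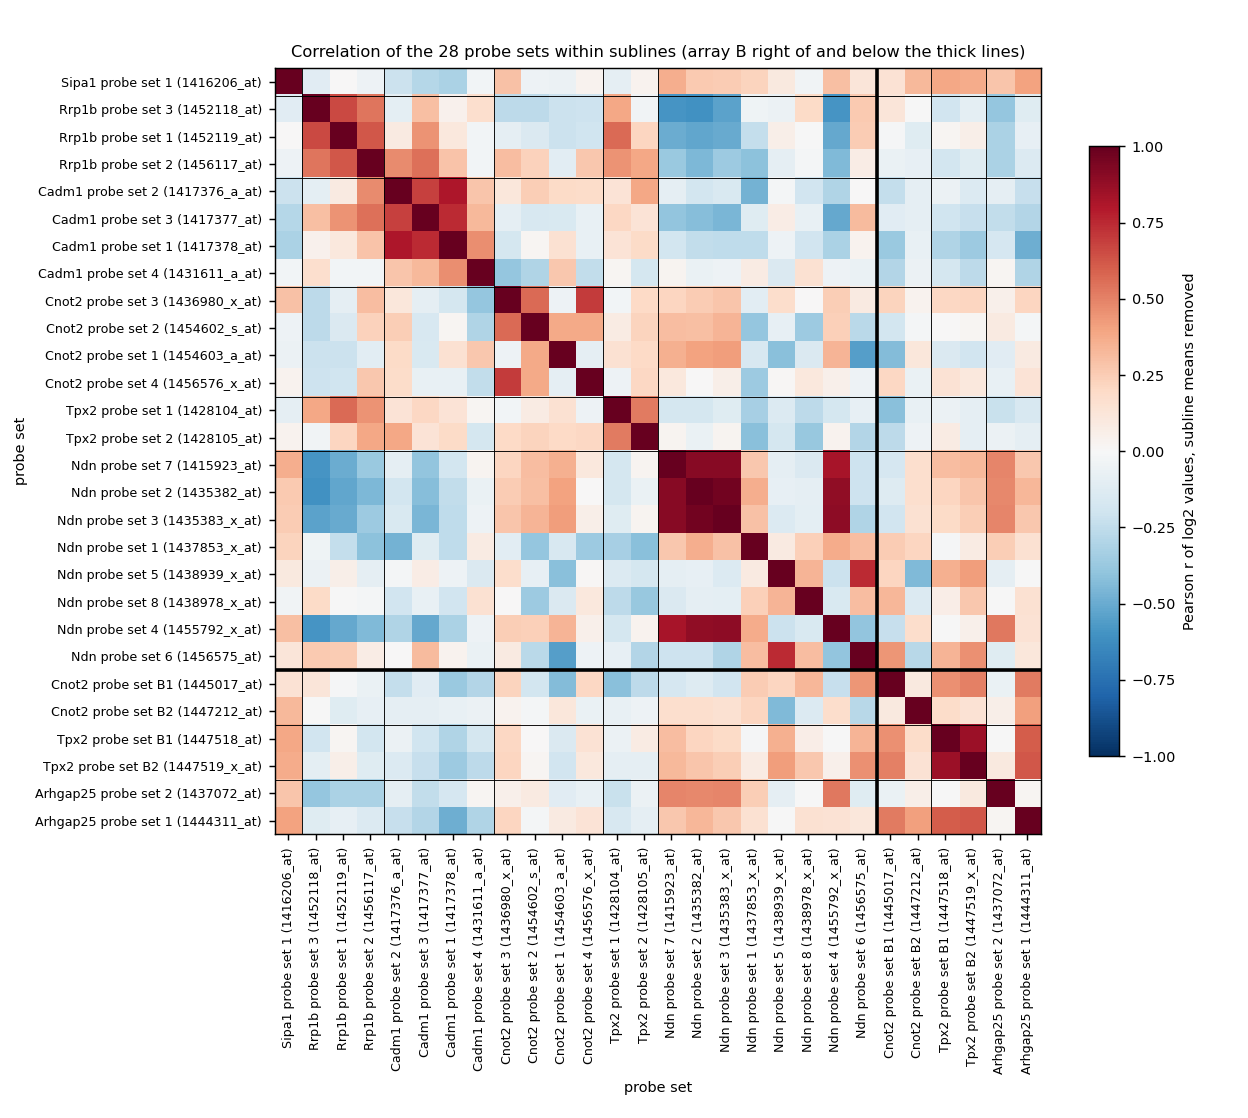
Pearson r within sublines for every pair of the 28 probe sets (red positive, blue negative; 51 to 53 tumours a pair). Thin lines part genes and thick lines part array A from array B. The 4 Ndn probe sets with r of 0.82 to 0.97 are numbers 2, 3, 4 and 7. Of these, numbers 7, 2 and 3 lie side by side, and number 4 lies apart from them. The Tpx2 probe sets of array B stand apart from those of array A.

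Among the 7 genes, 1 pair of 21 was called. Tpx2 and Rrp1b rose and fell together, with r = 0.56 within sublines (permutation p = 0.00108, n = 52 tumours), Spearman's rho of 0.61 (permutation p = 0.00033) and r = 0.55 when tumours were pooled over sublines. Without the 2 tumours farthest from the Rrp1b median r was 0.63. In limma's fit across all probe sets the pair passed both ways, with an adjusted p of 0.022 for Tpx2 on Rrp1b and 0.0087 for Rrp1b on Tpx2. The other Rrp1b probe sets had r of 0.45 (permutation p = 0.00383) and 0.38 (permutation p = 0.0616) with the same Tpx2 probe set. With the second Tpx2 probe set of array A the 3 Rrp1b probe sets had r of 0.39, 0.21 and -0.03. With the Tpx2 probe sets of array B, B1 and B2, they had r of -0.19 to 0.06 (n = 51 tumours). The pair was no longer called with 4 composition scores as covariates, described below, or without the tumours of replicate number 1, 2 or 3. Altogether 199 relations between levels were computed, and the Benjamini-Hochberg value over all of them was 0.0027 for this pair. It was 0.0059 for Cadm1 with Arhgap25 and 0.0275 for Sipa1 with Arhgap25, both on Arhgap25 probe set 1. The 199 relations include genes named below for their high or low r, and pairs of probe sets of 1 gene. The small p-values of those relations lower these values, which therefore do not stand for an adjustment over the 21 pairs alone. The 6 pairs with Arhgap25 were fitted by limma with Arhgap25 as the covariate only, so their call rested on that 1 fit. It gave adjusted p-values of 0.66 to 0.94.

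The other 20 pairs were not called, with r from -0.49 to 0.40. The lowest was Cadm1 with Arhgap25 (r = -0.49, permutation p = 0.00252, rho = -0.56, n = 51 tumours), with an adjusted p of 0.66 in limma's fit. Sipa1 with Arhgap25 had r = 0.40 (permutation p = 0.0131, n = 51 tumours) and an adjusted p of 0.72. On Arhgap25 probe set 2 r was -0.17 for Cadm1. For Sipa1 it was 0.27 there (permutation p = 0.17), and -0.055 without the 2 tumours farthest from the Sipa1 median. Sipa1 and Rrp1b, whose proteins bind each other, had r = 0.00 (permutation p = 0.98, n = 52 tumours). On probe set 2, Ndn had r = -0.52 with Rrp1b (permutation p = 0.00222, n = 52 tumours) and 0.48 with Arhgap25 on its probe set 2 (permutation p = 0.00871, n = 51 tumours).

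Tpx2 moved with the genes of cell division. In limma's fit of each array A probe set on the subline and the Tpx2 level, 2008 of 22624 probe sets were called, which is 8.88%; 6.95% were positive and 1.92% negative. The 5 genes with the highest r were Aurka, the Aurora A kinase that Tpx2 activates, the chromosome motor Kif22, the cyclin Ccnb2, the GTPase Ran and the Cdk-binding protein Cks2. Their r was 0.85, 0.84, 0.82, 0.81 and 0.80. Each of these 5 had the smallest p that 100000 permutations can give, 1e-05, also for rho, and r of 0.72 to 0.79 without the 2 farthest tumours. These 5 were picked for their r in the same tumours, so small permutation p-values follow from the choice and add no evidence. Aurka had 7.96, 8.67 and 9.21 in the lowest, median and highest tumour. It rose by 0.93 ± 0.10 (SE) log2 units per log2 unit of Tpx2, with an adjusted p of 4.73e-07, and Ran by 0.55 ± 0.07. Ran was the brightest of the 5, at 12.21 to 12.82. The lowest r belonged to Rab43, a GTPase of vesicle traffic (-0.71), Iqsec1, an activator of the GTPase Arf (-0.70), and the sorting receptor Sorl1 (-0.70). Further probe sets were called for Kif22 (2 of 2), Ran (4 of 5), Cks2 and Sorl1 (1 of 1 each), but not for Rab43 (r = -0.32) and Iqsec1 (r = -0.40).

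Of 29 measured cell cycle and mitotic spindle genes, 26 rose with Tpx2 and 0 fell, and the median r was 0.72, against -0.07 over all probe sets. The 4 with the smallest p were Aurka, Ccnb2, the survivin gene Birc5 (r = 0.79) and the kinesin Kif20a (r = 0.79). The 3 not called were Foxm1 (r = 0.28), Ckap5 (r = 0.14) and Numa1 (r = 0.005). The list was drawn up knowing that Tpx2 follows mitotic genes in these data, so its direction is no independent evidence. Of 13 genes for nucleolar proteins and Rrp1b partners, 5 rose with Tpx2, among them the box C/D proteins Nop56 (r = 0.71) and Fbl (r = 0.59) and nucleophosmin Npm1 (r = 0.63). The basal keratins Krt14 (r = 0.54) and Krt5 (r = 0.46) rose with Tpx2, and the other 6 basal markers were not called. Rap1gap, which like Sipa1 switches off Rap, fell as Tpx2 rose (r = -0.61, adjusted p = 0.0019 by limma). It is 1 gene of the 14 measured in the list of Rap GTPases, regulators and effectors. The fit called 8.88% of all probe sets, so this call alone does not set that list apart.

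Most of the cell cycle genes were also called with Tpx2 when marker scores of some other cell types were entered into the fit. Fibroblast, macrophage and endothelial markers were not entered. With the scores of adipocyte, T cell, B and plasma cell and skeletal muscle markers as covariates, 4.97% of probe sets were called with Tpx2, and 24 of the 29 cell cycle genes. Of the 11 measured T cell markers Cd3g spanned the most, from 5.87 to 7.06, and Cd3e ran from 8.23 to 8.81. The part of array background in the T cell score was not tested. Without the tumours of replicate number 2 there were 8 of 29, and without those of number 1 or 3 there were 23 and 18.

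The start regions of Aurka and Ccnb2, 2 of the 5 closest Tpx2 followers, and of Rrp1b are shown because each moved with Tpx2. Those of the other close followers, Kif22, Ran and Cks2, are not shown, so the windows below do not stand for all 5. The RefSeq table of promoters (build GRCm38.p6, 250 bases before to 50 after the start) held 5 of the 7 genes, not Tpx2 and Cadm1. Capitals mark 2 motifs found by search on both strands: the cell cycle homology region, which reads TTTGAA on one strand and thus TTCAAA on the other, and the box that reads CCAAT on one strand and thus ATTGG on the other, which do not overlap in these windows. The Aurka window is chr2:172370521-172370820 on the minus strand, the Ccnb2 window chr9:70421505-70421804 on the minus strand and the first of 2 Rrp1b windows chr17:32035912-32036211 on the plus strand, each written 5′ to 3′.
Aurka: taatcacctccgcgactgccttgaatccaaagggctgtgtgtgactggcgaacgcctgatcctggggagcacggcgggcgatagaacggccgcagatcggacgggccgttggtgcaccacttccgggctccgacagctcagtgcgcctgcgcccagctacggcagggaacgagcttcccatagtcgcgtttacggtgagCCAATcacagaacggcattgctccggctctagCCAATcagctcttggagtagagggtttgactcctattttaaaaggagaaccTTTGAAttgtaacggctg
Ccnb2: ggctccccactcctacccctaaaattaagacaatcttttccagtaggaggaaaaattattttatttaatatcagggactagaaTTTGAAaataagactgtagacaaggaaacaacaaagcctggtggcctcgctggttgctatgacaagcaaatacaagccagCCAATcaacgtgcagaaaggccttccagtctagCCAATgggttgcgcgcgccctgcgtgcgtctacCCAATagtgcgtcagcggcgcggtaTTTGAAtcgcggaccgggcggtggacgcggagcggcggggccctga
Rrp1b: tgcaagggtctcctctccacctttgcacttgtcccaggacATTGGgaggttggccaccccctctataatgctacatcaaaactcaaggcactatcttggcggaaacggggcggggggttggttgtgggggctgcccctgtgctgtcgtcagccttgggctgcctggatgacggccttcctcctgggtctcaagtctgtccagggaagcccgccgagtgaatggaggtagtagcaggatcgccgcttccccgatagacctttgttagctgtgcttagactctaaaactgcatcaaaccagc
Aurka has 2 CCAAT matches and 1 TTTGAA match, and Ccnb2 has 3 and 2. Rrp1b has 1 ATTGG match and 0 of the other motif. Of 27025 genes with such windows, 20.2% hold TTTGAA or its reverse, 41.1% hold CCAAT or its reverse and 8.0% hold both. Of the 27 cell cycle list genes in the table, 18 hold the first, 19 the second and 16 both. A match describes letters and does not show that a factor binds.

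**Figure D3:**
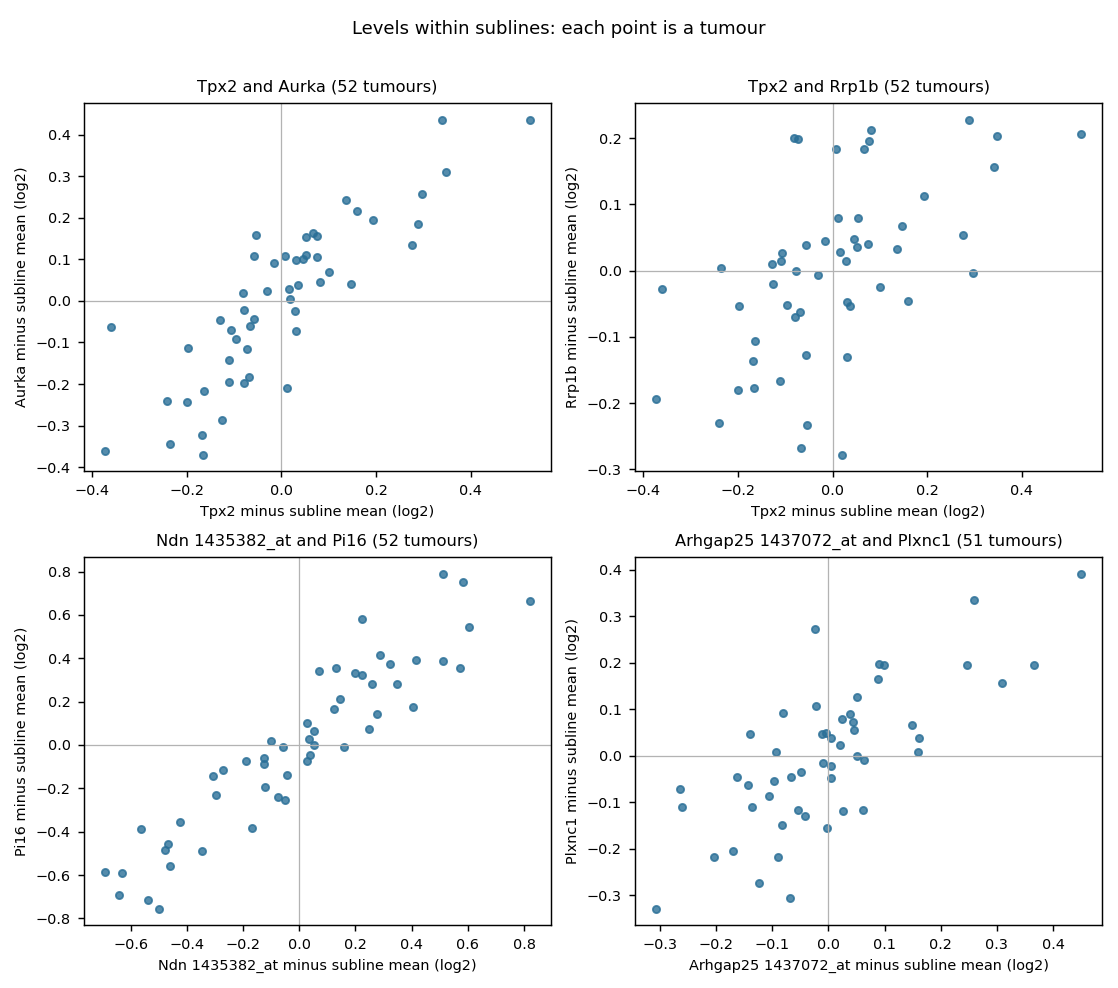
Levels of 4 pairs of genes with each subline's mean taken away (both axes in log2 units; each point is a tumour, 51 or 52 a panel). Aurka lies close to a line with Tpx2 (r = 0.85) and Pi16 with Ndn on its probe set 2 (r = 0.93), while Rrp1b scatters more around Tpx2 (r = 0.56).

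Rrp1b moved with cell division genes and against genes of the connective tissue. On probe set 1, 738 probe sets were called, 3.26% of those tested; 1.83% were positive and 1.43% negative. The closest followers were Tes, a LIM protein of focal adhesions (r = 0.77), Grhpr, an enzyme of glyoxylate metabolism (r = 0.75), the RNA-binding protein Mbnl3 (r = 0.70), Mtbp, which binds Mdm2 (r = 0.70), and Fam104a (r = 0.69). Tes ran from 8.94 over a median of 9.42 to 9.79 and rose by 0.81 ± 0.12 (SE) per unit of Rrp1b (adjusted p = 0.0011 by limma). Its second probe set was also called (r = 0.63, adjusted p = 0.014), whereas the other 2 of Fam104a were not (r = 0.11 and 0.19). The genes that fell most closely as Rrp1b rose were the TGF-beta receptor Tgfbr2 (r = -0.69), the PI3-kinase subunit Pik3r1 (r = -0.67) and the scaffold Slc9a3r2 (r = -0.66). Tgfbr2 was high in all tumours, at 10.92, 11.40 and 11.88 in the lowest, median and highest. Other probe sets of Tgfbr2 and Pik3r1 were not called, and of 5 further ones of Slc9a3r2 2 were called.

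Of 29 cell cycle genes, 17 rose with Rrp1b and 0 fell (median r = 0.52, against 0.03 over all probe sets). The 4 with the smallest p were the kinase Aurkb (r = 0.64), the checkpoint genes Mad2l1 (r = 0.61) and Bub1 (r = 0.60) and the spindle protein Tacc3 (r = 0.63). Of 23 extracellular matrix genes, 8 fell as Rrp1b rose and 0 rose (median r = -0.36), among them periostin, Postn (r = -0.64), Nid1 (r = -0.60), Col6a2 (r = -0.59) and Col6a1 (r = -0.58). Of 10 fibroblast markers 6 fell, with lumican, Lum, first (r = -0.65), then decorin, Dcn (r = -0.55), Dpt (r = -0.52) and Pdgfra (r = -0.52). Of the other cell type markers 2 of 10 endothelial, 1 of 12 macrophage and 1 of 9 adipocyte markers fell as Rrp1b rose, with median r of -0.47, -0.43 and -0.44. In bulk tumour RNA, fewer cells of a type and less RNA per cell cannot be told apart. In the list of nucleolar proteins and partners 1 of 13 was called, Nop56 (r = 0.65), and the median r was 0.29.

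The other Rrp1b probe sets gave different counts. On probe set 2, 18.7% of probe sets were called, 12.1% positive and 6.61% negative, with 23 cell cycle genes positive, 12 matrix genes negative and 7 fibroblast markers negative. On probe set 3, 5.2% were called, 1.78% positive and 3.42% negative, with 3, 4 and 5 members of these lists. The probe set 2 level also followed the difference between the 3′ and 5′ Gapdh control probe sets, a sign of RNA integrity (r = 0.52, permutation p = 0.00787, n = 52 tumours), and probe set 1 did not pass that test (r = 0.08, permutation p = 0.66). The Rrp1b calls rested on the full set of tumours. With the composition scores 0.0398% of probe sets were called and 0 genes of the 3 lists, and the lists also had 0 calls without the tumours of replicate number 1, 2 or 3.

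Ndn, on the brightest of its 4 concordant probe sets, rose with genes of connective tissue. On probe set 2, 8.15% of probe sets were called, 5.63% positive and 2.52% negative. The closest genes were Pi16, a secreted protein of fibroblasts (r = 0.93), the matrix proteins Tnxb (r = 0.91), Dpt (r = 0.91) and Svep1 (r = 0.90), and Igfbp6, which binds insulin-like growth factor 2 (r = 0.89). All 5 had permutation p-values of 1e-05, the smallest possible, and r of 0.86 to 0.92 without the 2 farthest tumours. They too were picked for their r in the same tumours, so these p-values add no evidence. Pi16 had 7.00, 8.05 and 9.35 in the lowest, median and highest tumour, and rose by 0.99 ± 0.07 (SE) per unit of Ndn with an adjusted p of 3.20e-13. The second Pi16 probe set, at 6.27, was not called (r = 0.06). Dpt spanned the most, at 7.10, 8.96 and 10.49, with a slope of 1.53 ± 0.12.

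The genes that fell most closely as Ndn rose were the prolyl hydroxylase Egln3 (r = -0.79), the growth factor binding protein Igfbp3 (r = -0.76) and the carbonic anhydrase Car9 (r = -0.75). Car9 had 7.44, 8.70 and 10.01 in the lowest, median and highest tumour. With the composition scores as covariates r was -0.56, -0.48 and -0.40 for these 3, and Egln3 was still called (adjusted p = 0.047 by limma).

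By list, on probe set 2, 15 of 23 matrix genes rose with Ndn (median r = 0.63, against -0.07 over all probe sets), led by Nid1 (r = 0.88), Col3a1 (r = 0.82), Col5a1 (r = 0.83) and Col6a2 (r = 0.81). Of 10 fibroblast markers 8 rose, with Dpt and Thy1 (r = 0.88) first. All 12 macrophage markers rose, among them Mrc1 (r = 0.80) and Csf1r (r = 0.80), and 8 of 10 endothelial markers, with Tek (r = 0.85) and Pecam1 (r = 0.76). So did 8 of 9 adipocyte markers, led by Adipoq (r = 0.77) and Fabp4 (r = 0.74), and all 12 skeletal muscle markers, led by Eno3 and Pvalb (r = 0.65 and 0.64). Markers of several cell types that do not belong to the carcinoma thus rose together with Ndn, and the part of each in the Ndn level was not tested. Of 11 T cell markers 1 was called. The luminal marker Elf5 was the only called gene of 9 luminal markers (r = 0.46). Of 18 imprinted genes 2 rose, Meg3 (r = 0.62) and Nnat (r = 0.57). With the composition scores, which hold the adipocyte and muscle markers themselves, 0.902% of probe sets were called. Of the lists, 12 matrix genes, 5 fibroblast and 4 macrophage markers were then still called. Without the tumours of replicate number 2 each of these 3 lists had 2 calls.

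The brightest Ndn probe set gave another picture. On probe set 1, 31.2% of probe sets were called, 18.9% positive and 12.4% negative. The closest genes were Col26a1 (r = 0.85), Spon2 (r = 0.82), Adamtsl5 (r = 0.81), Hoxc6 (r = 0.81) and Iffo1 (r = 0.81), and the most opposed were Mtdh (r = -0.79), Rlf (r = -0.78) and Luc7l2 (r = -0.76). Of 5 other Mtdh probe sets 2 were called negative and 1 positive (r = 0.54, adjusted p = 0.0065 by limma), and 0 of 4 other Luc7l2 probe sets were called. The 2 other Hoxc6 probe sets and the other Iffo1 probe set were called positive. Col26a1 ran from 5.07 to 5.75, just above background. Among the lists 9 of 9 adipocyte and 9 of 11 T cell markers rose and 14 of 29 cell cycle genes fell. Macrophage markers, all called on probe set 2, had 1 of 12 here. The T cell markers Cd3e and Cd2 ran from 8.23 to 8.81 and from 4.99 to 5.93. Only 3 probe sets were called in all with the composition scores. This probe set also moved with the bacterial controls, as given above, and the part of these controls in the calls was not tested.

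Arhgap25 gave calls on 1 of its 2 probe sets. On probe set 1, 0.0% of array A probe sets were called over 51 tumours by limma, and 1484 had an unadjusted p under 0.05. On probe set 2, which had 5.83, 6.09 and 6.75 in the lowest, median and highest tumour, 2.13% were called, 1.8% positive and 0.323% negative. The closest genes were the semaphorin receptor Plxnc1 (r = 0.74), Mpeg1, a pore-forming protein of macrophages (r = 0.74), the dendritic cell antigen Cd83 (r = 0.73), the complement receptor C3ar1 (r = 0.73) and the adhesion molecule Vcam1 (r = 0.72). Mpeg1 had 8.67, 9.67 and 10.45 in the lowest, median and highest tumour and rose by 1.37 ± 0.21 (SE) per unit of Arhgap25 (adjusted p = 0.0014). A second Plxnc1 probe set (r = 0.68) and a second Vcam1 probe set (r = 0.60) were called as well. Not called were 2 further ones of Plxnc1 (r = 0.28 and -0.09), 1 of Vcam1 (r = 0.32) and the other one of C3ar1 (r = 0.51, adjusted p = 0.055). Opposed were Polr2h, a subunit of the RNA polymerases (r = -0.64), the Mediator subunit Med29 (r = -0.63) and Narf (r = -0.62), and the other probe sets of Med29 and Narf were not called.

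Of 12 macrophage markers 8 rose with Arhgap25 on its probe set 2 (median r = 0.56), with the receptor Csf1r (r = 0.68), lysozyme Lyz2 (r = 0.65), Fcgr3 (r = 0.61) and Cd68 (r = 0.60) first. The B cell markers Cd79b (r = 0.58), Cd22 (r = 0.54) and Cd79a (r = 0.52) rose too, 3 of 7 measured, and 1 of 11 T cell markers. Given the composition scores, or without the tumours of replicate number 1, 0 of the 12 macrophage markers were called, and without number 2 there was 1.

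Sipa1 had few followers. Calls numbered 18, or 0.0796% of probe sets, with 8 positive and 10 negative. The closest were the gelatinase Mmp9 (r = 0.68), Fgd2, an activator of Cdc42 (r = 0.68), Arhgap4 (r = 0.66), the complement receptor Cr2 of B cells (r = 0.65) and the B cell transcription factor Spib (r = 0.64). Mmp9 had 5.98, 6.43 and 6.90 in the lowest, median and highest tumour, and all 5 had an adjusted p of 0.037 by limma. Without the 2 farthest tumours these r lay between 0.48 and 0.59. The most opposed were the nuclear RNA Malat1 (r = -0.65), the protease Sppl2a (r = -0.64) and Cldn23 (r = -0.64). Malat1 spanned 5.04, 7.40 and 8.26 in the lowest, median and highest tumour, and fell by 3.79 ± 0.73 (SE) per unit of Sipa1. A second Malat1 probe set was called (r = -0.61) and 3 others, with r of -0.58 to -0.56, were not. Neither were the other Mmp9 probe set (r = 0.55) and the 2 other Sppl2a probe sets (r = -0.53 and -0.23).

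Of 14 measured Rap GTPases, regulators and effectors 0 were called with Sipa1 by limma. The lowest p in this list belonged to Rapgef1, which activates Rap (r = 0.47, adjusted p = 0.17). Of 7 B and plasma cell markers 0 were called, with a median r of 0.53 against 0.04 over all probe sets. Among them Cd79b had r = 0.58 (adjusted p = 0.062) and Ms4a1 r = 0.58 (adjusted p = 0.069). With the composition scores 0 probe sets were called with Sipa1, and 0 when the dimmer probe sets were left out before the fit.

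Cadm1 had 29 called probe sets on its probe set 1, 0.128% of those tested, 25 of them positive. Of 22622 tested, probe set 2 had 1971 calls (1027 positive, 944 negative), probe set 3 had 494 (330 and 164) and probe set 4 had 0. Probe sets 2 and 3 had r of 0.81 and 0.75 with probe set 1, and probe set 2 also went with the bacterial controls (r = -0.53). The values that follow are those of probe set 1. The closest genes were the surface antigen Tpbg (r = 0.74), the Wnt receptor Fzd7 (r = 0.71), the zinc finger factor Zscan21 (r = 0.70), the leucine zipper protein Tsc22d1 (r = 0.67) and the quinone reductase Nqo1 (r = 0.66). Tpbg had 5.88, 6.56 and 7.01 in the lowest, median and highest tumour and rose by 0.76 ± 0.12 (SE) per unit of Cadm1 (adjusted p = 0.0023 by limma). Tsc22d1 was called on 2 further probe sets (r = 0.65 and 0.61), and Tpbg on 1 (r = 0.61), while 3 other Tsc22d1 probe sets (r of 0.32 to 0.60), 1 of Tpbg (r = 0.12), 1 of Fzd7 (r = 0.25) and 3 of Zscan21 (r of 0.27 to 0.40) were not called. The most opposed were the myosin light chain Myl3 (r = -0.63), the glucocorticoid receptor Nr3c1 (r = -0.62) and the phosphatase Pgp (r = -0.60), with adjusted p-values of 0.048. The other probe sets of these 3 genes were not called (r of -0.53 to -0.24). Of 16 adhesion genes and cytoplasmic partners of Cadm1 0 were called, and the lowest p belonged to Epb41l3, which links Cadm1 to actin (r = 0.38, adjusted p = 0.28). Adding the composition scores left 0 called probe sets, and Tpbg then had r = 0.71 with an adjusted p of 0.069. With the replicate number as a block there were 4.

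Cnot2 moved with genes of several functions. On probe set 1, 717 probe sets were called, 3.17% of those tested. Of the 11 CCR4-NOT subunits and recruiters measured on array A, which do not include Cnot1, Cnot10 and Cnot11, 0 were called by limma, a count near that share. The lowest p among them belonged to the deadenylase Cnot7 (r = 0.38, adjusted p = 0.14), followed by Cnot9 (r = 0.35, adjusted p = 0.20), and both had an unadjusted p under 0.05. The closest genes were Cops2, a subunit of the COP9 signalosome (r = 0.82), Cacul1, a cullin-like protein that binds Cdk2 (r = 0.80), Echs1, an enzyme of mitochondrial fatty acid oxidation (r = 0.72), the translation initiation factor Eif3a (r = 0.71) and 4833420G17Rik (r = 0.70). Cops2 had 9.69, 10.05 and 10.22 in the lowest, median and highest tumour and rose by 1.04 ± 0.15 (SE) per unit of Cnot2 (adjusted p = 0.00019). Its second probe set had r = 0.43, which was not called, and of the other 5 Cacul1 probe sets 2 were called, with r of 0.72 and 0.53. The most opposed were Rpf2, which acts in ribosome assembly (r = -0.70), Rhbdd3 (r = -0.70) and Kank2 (r = -0.69). The other Rpf2 probe sets (r = 0.34 and 0.07) and the other Rhbdd3 probe sets (r = -0.45 and 0.15) were not called, nor were those of 4833420G17Rik, and 1 of 3 other Eif3a probe sets was.

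All 8 named Cnot2 genes were still called with the composition scores as covariates, with Cops2 at r = 0.81 and an adjusted p of 0.0014 by limma, among 0.371% of all probe sets. Quantile normalization left 17 called probe sets in all, and leaving out the tumours of replicate number 1 or 2 left 0. The other Cnot2 probe sets had r of -0.435 to 0.38 with the brightest. The lowest was that of probe set B1 (permutation p = 0.0145, n = 51 tumours). Probe set 3 and the dimmest of array A had r of -0.05 and -0.09 with the brightest. These 2 had r = 0.70 with each other, and r of 0.57 and 0.38 with probe set 2. The genes named above are those of the brightest probe set only. Probe set 3 followed the Gapdh difference (r = 0.54, permutation p = 0.00394, n = 52 tumours), whereas the r of the brightest was -0.33 (permutation p = 0.0935).

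**Figure D4:**
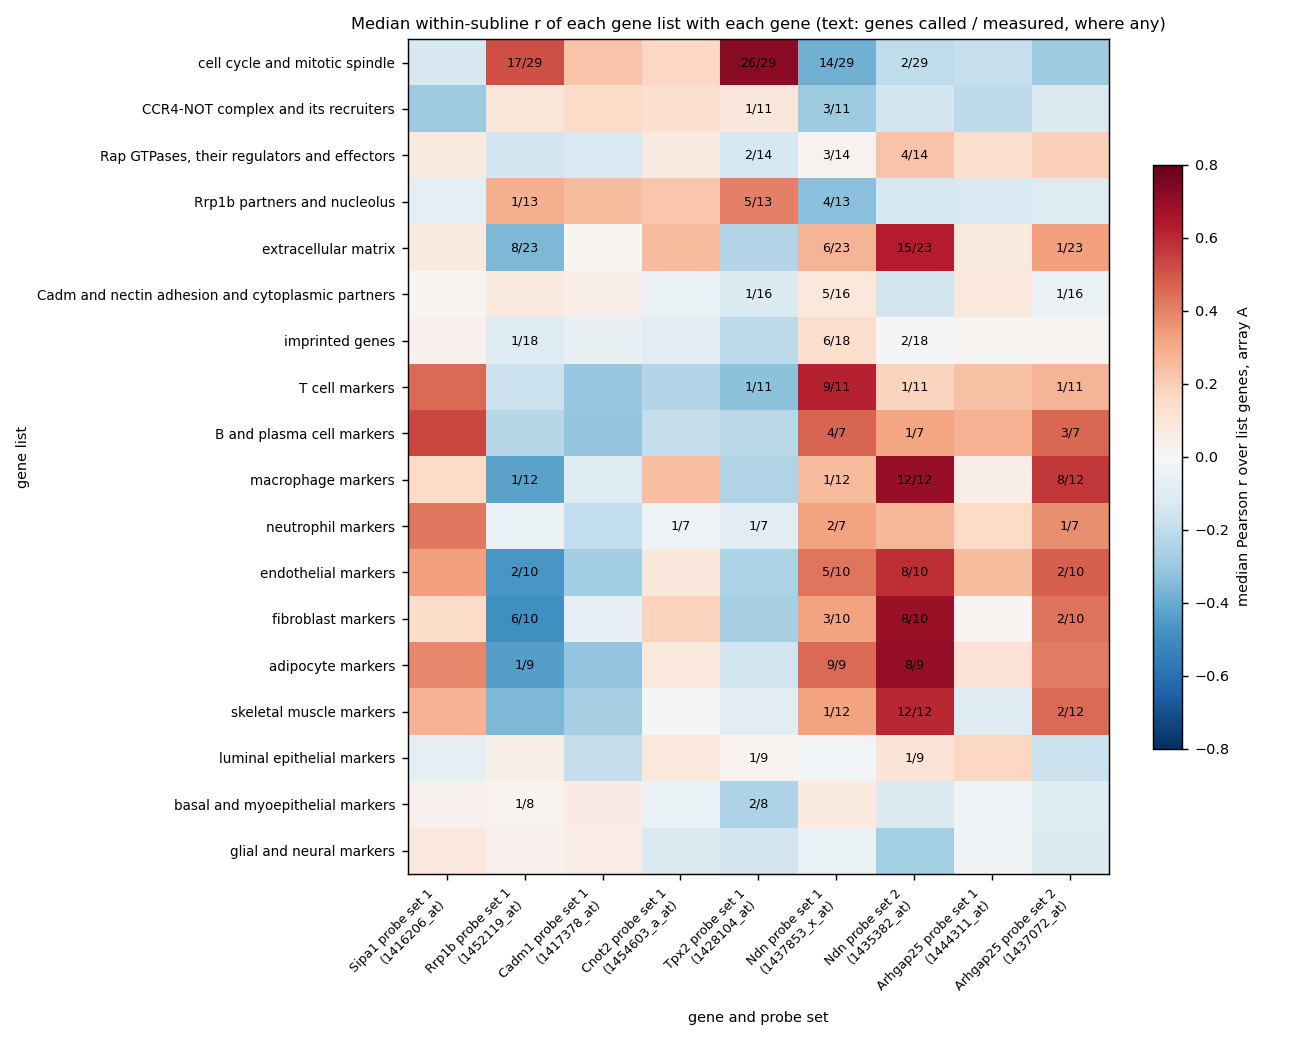
Median Pearson r within sublines (colour) of the gene lists reported (rows) with each gene and probe set (columns), over the list genes measured on array A. Text gives genes called over genes measured where any was called. The cell cycle list is red with Tpx2 (26 of 29) and Rrp1b (17 of 29), and stromal and muscle lists are red with Ndn on its probe set 2.

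The genes next to the 7 on their chromosomes were compared with them in the same fits. The 5 RefSeq genes on each side of each were taken, 70 in all, of which 41 were measured on array A by a probe set with 1 symbol. Only 2 were called, both with Ndn on its brightest probe set: Magel2, the imprinted gene beside it (r = 0.53, adjusted p = 0.0077 by limma), and A230006K03Rik (r = 0.52, adjusted p = 0.013), which at 4.61 was below the background level. That fit called 31.2% of all probe sets, so 2 of 5 is near its background. On Ndn probe set 2 Magel2 had r = -0.34 and was not called (adjusted p = 0.22). For the other 6 genes 0 neighbours were called, in fits that called 0.0796% (Sipa1), 3.26% (Rrp1b), 0.128% (Cadm1), 3.17% (Cnot2), 8.88% (Tpx2) and 0.0% (Arhgap25) of all probe sets, so this count is near the background as well. The highest r among these was that of Ehbp1l1 with Sipa1 (0.51, adjusted p = 0.11), and the lowest that of Gm5617 with Cadm1 (-0.46, adjusted p = 0.21).

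**Figure D5:**
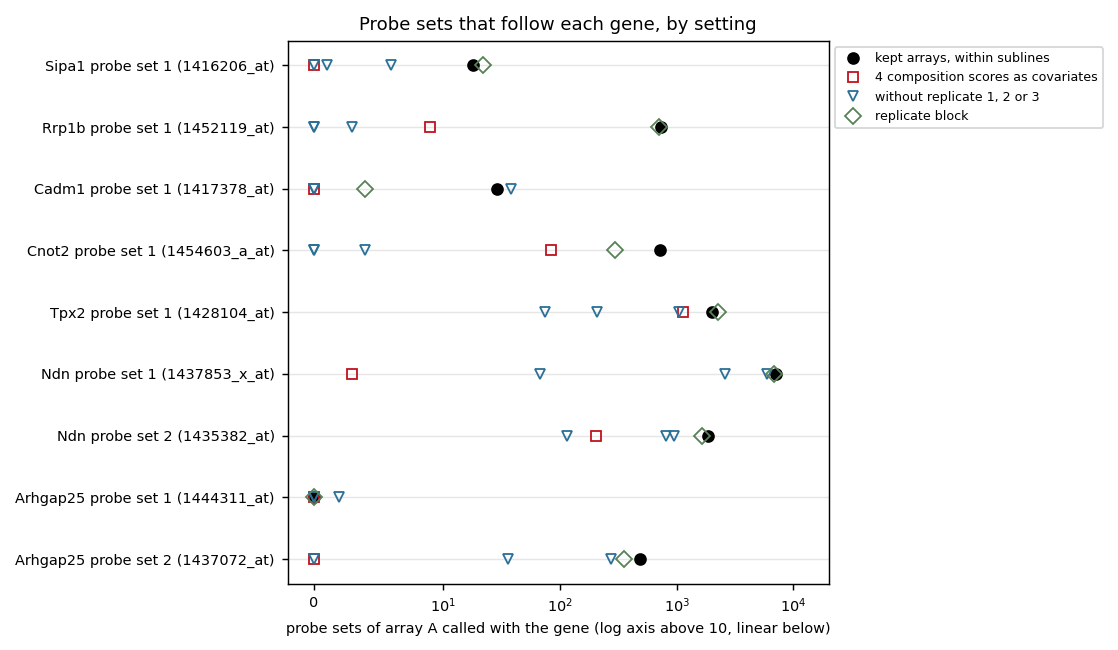
Number of array A probe sets called with each gene (x axis, logarithmic above 10 and linear below) for each gene and probe set (rows). Black points are the kept arrays within sublines, red squares add 4 composition scores, green diamonds add the replicate number, and blue triangles leave out the tumours of 1 replicate number. Tpx2 has 1124 calls with the scores against 2008 without them, and Rrp1b has 9 against 738.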

How the data were processed

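Total RNA of 56 PyMT mammary tumours was read on 2 single-colour Affymetrix arrays per tumour, MOE430A and MOE430B, per the labels. The deposited numbers are on the log2 scale, which the authors computed with RMA, per the submitters' processing notes; neither its version nor a genome build is given in the sources used here. They were used as deposited, each array type on its own, and no column belonged to another series. Control probe sets were set aside. Arrays with a median correlation under 0.95 with the others were left out.

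Symbols came from the platform annotation, updated through RefSeq (assembly GRCm38.p6): 20380 probe sets on array A had 1 symbol, 691 several and 1555 none. The members, the gene lists and the rule for named genes were chosen with earlier results of these data known.

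The moderated F test among sublines used lmFit and eBayes of limma 3.58.1 (R 4.3.3). Followers were array A probe sets with a slope on the member's level, in a model with 1 mean per subline; P-values were adjusted by Benjamini-Hochberg over all probe sets of an array. The text names, for each member, the called genes with the 5 highest and 3 lowest r, and up to 4 called genes of each list. Each of 19 lists was read with 1 probe set per gene, the brightest; 1 list is not reported here, though it counts in the total over all lists. Correlations were tested two-sided by 100000 permutations within sublines (Python 3.11.15). The composition scores are means over the markers of skeletal muscle, adipocytes, B or plasma cells and T cells. The fits were tested on simulated data before use. Labels name the tumours of 1 subline biological replicates and no batch; the number of arrays limits the precision.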

Additional observations from a re-analysis of the deposited data

Results flagged for a closer look

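In subline 2, the only subline with 4 kept tumours, each of the 28 member probe sets was checked for a tumour far from the other 3, and chance alone gives such a flag in about 1 of 20 groups. Only 1 tumour was flagged, which is no more than chance alone gives over 28 such groups. On Cadm1 probe set 2 tumour 1 of subline 2 read 7.164, while the other 3 tumours lay between 8.102 and 8.229. This tumour also had the highest mean of the bacterial controls without target on the kept arrays A, 5.05. It was the lowest kept tumour on probe sets of Rrp1b, Cnot2, Ndn and Tpx2 as well, and the highest on Ndn probe set 1. The part of the array in this reading was not tested.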

How the results depend on the processing

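No result was called among sublines on array A except with all 56 arrays, which gave 1 member probe set, Ndn probe set 4; on array B the count stayed at 0 in all 9 alternatives, including the replicate block. Counts of probe sets that follow a gene moved by over 1.5 times in most settings. With all 56 arrays they were 14409 for Sipa1, 0 for Rrp1b, 15136 for Cadm1, 16124 for Cnot2, 751 for Tpx2, 7118 for Ndn on probe set 2 and 2363 for Arhgap25 on probe set 2. Without the subline term they were 854 for Sipa1, 2614 for Rrp1b, 73 for Cadm1, 2884 for Ndn on probe set 2 and 940 for Arhgap25 on probe set 2. With the composition scores they were 0 for Sipa1, Cadm1 and Arhgap25 on probe set 2, 9 for Rrp1b, 84 for Cnot2, 1124 for Tpx2, 3 for Ndn and 204 for Ndn on probe set 2. Without the dimmer probe sets they were 0 for Sipa1, 465 for Cnot2 and 2496 for Ndn. Quantile normalization gave 35 for Sipa1, 10 for Cadm1, 17 for Cnot2 and 3185 for Ndn. The second brightest probe set gave 4233 for Rrp1b, 1971 for Cadm1, 1793 for Cnot2, 1844 for Ndn and 481 for Arhgap25.

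With the replicate number as a block there were 4 followers of Cadm1 and 297 of Cnot2, and the other counts stayed within 1.5 times; the numbers do not pair tumours, since same-numbered tumours had mean correlations of -0.01 to 0.00 and 14 of 50 resembled their own number most. Leaving out replicate 1, 2, 3 or 4 gave 0 to 11 for Sipa1, 0 to 659 for Rrp1b, 0 to 38 for Cadm1, 0 to 285 for Cnot2, 74 to 2253 for Tpx2, 67 to 6312 for Ndn, 0 to 2 for Arhgap25, 114 to 1615 for Ndn on probe set 2 and 0 to 318 for Arhgap25 on probe set 2; these fits hold fewer tumours. Member pairs called both ways numbered 3 with all arrays, 0 with the composition scores and 0 to 1 without a replicate. Neighbours called numbered 10 with all arrays, 4 without the subline term, 0 with quantile normalization or the composition scores and 0 to 3 without a replicate. Calls over all lists, 161, became 530 with all arrays, 31 with the composition scores and 8 to 170 without a replicate.

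Of the list counts chosen after seeing the data, those of Rrp1b (cell cycle, matrix, fibroblast) were 0 with all arrays or composition scores, 0 to 16, 0 to 8 and 0 to 3 without a replicate, and 3 and 4 for the first 2 on probe set 3. Cell cycle genes with Tpx2 were 8 to 26 without a replicate. On probe set 2, matrix, fibroblast and macrophage genes with Ndn were 3, 5 and 4 with all arrays, fibroblast and macrophage genes were 5 and 4 with the composition scores, and adipocyte and muscle genes 0, as their markers are the covariates. Without a replicate these 5 lists had 2 to 16, 2 to 8, 2 to 12, 0 to 8 and 0 to 12. Macrophage genes with Arhgap25 were 0 with the composition scores and 0 to 8 without a replicate. Of 598 values of single followers and the Tpx2 pair under alternatives, 395 kept direction and call, 196 kept direction and lost the call, and 7 reversed, all with all 56 arrays: Mmp9, Fgd2 and Spib with Sipa1 (r = -0.41, -0.30 and -0.13), Nr3c1 and Pgp with Cadm1 (r = 0.50 and 0.041), Plxnc1 and C3ar1 with Arhgap25 on probe set 2 (r = -0.010 and -0.031). The causes were not tested. Signal over background limits the dim probe sets, such as Col26a1.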
